A study of Mus musculus with 2 samples.

Results

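6 chemokine-system genes were followed across the cell types of the neonatal mouse heart: the chemokine Cxcl12, its receptors Cxcr4 and Ackr3, and the chemokines Cxcl1, Cxcl14 and Cxcl16. They are 6 of the 31053 genes in the count matrices, and they were chosen on their own summed levels in these 2 libraries and in 7 cell classes gated by marker genes. Their levels and their differences between libraries are therefore given as a description, and no test was made of them. Live cells sorted from hearts at postnatal day 1 (P1) and postnatal day 7 (P7), ages chosen by the study to compare an intact heart in its regenerative and non-regenerative period, were profiled by droplet-based single cell RNA-seq. Each age was 1 library, made from 3 hearts of 1 litter that were pooled, so animals could not be separated and no replicate error exists. P1 hearts were digested in collagenase II for 20 minutes and P7 hearts for 45 minutes. The P1 library held 57336 UMIs (unique molecular identifiers, each counted as 1 captured transcript) of the female-specific Xist and 2 of Y-linked genes, against 12 and 18039 in the P7 library. Age, digestion time, sex and library cannot be told apart in any difference described here. Genotype, strain and sex of the sequenced animals are not given in the sources used here, and no group received a treatment.

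Chemokines are small secreted proteins that guide cells through G protein-coupled receptors. CXCL12 is held on the surface of stromal and vascular cells, signals through CXCR4, and is bound and removed by ACKR3, an atypical receptor that recruits arrestin and does not drive classical G protein signalling. In the developing heart, CXCL12 from the outflow tract, epicardium and arterial wall and CXCR4 on endothelial cells are known for their part in building coronary arteries. CXCL1 recruits neutrophils and its transcript is rapidly induced in stressed stromal cells. CXCL14 attracts or retains several kinds of leukocyte, and CXCL16 is made as a membrane-anchored ligand of CXCR6 that also takes up oxidised lipid.

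On GRCm38 the GENCODE M21 annotation places Cxcl12 (ENSMUSG00000061353) at chr6:117168535-117181367 on the plus strand, Cxcr4 (ENSMUSG00000045382) at chr1:128588199-128592293 on the minus strand and Ackr3 (ENSMUSG00000044337) at chr1:90203980-90216751 on the plus strand. Cxcl1 (ENSMUSG00000029380) lies at chr5:90891241-90893115 on the plus strand, Cxcl14 (ENSMUSG00000021508) at chr13:56288643-56296551 on the minus strand and Cxcl16 (ENSMUSG00000018920) at chr11:70453983-70459984 on the minus strand. A RefSeq promoter window on GRCm38.p6 was found for 5 of the 6 genes, all but Cxcl16. The 250 bases before the RefSeq start of Cxcl12 (chr6:117168285-117168534), Cxcr4 (chr1:128592300-128592549), Ackr3 (chr1:90203730-90203979) and Cxcl1 (chr5:90890995-90891244) are shown 5′ to 3′ on the strand of each gene, because these 4 genes take up most of the results below, and the window of Cxcl14 is not shown. Capitals mark 5 motifs. The TATA box letters TATAAA were searched on the strand of the gene, and the others on both strands. These were the GC box letters GGGCGG, whose neighbouring matches may overlap, the letters ACGTG and, as a second form, GCGTG, which form the core of a HIF binding site, HIF signalling being the subject of the study, and 1 longer NF-kB consensus.
Cxcl12: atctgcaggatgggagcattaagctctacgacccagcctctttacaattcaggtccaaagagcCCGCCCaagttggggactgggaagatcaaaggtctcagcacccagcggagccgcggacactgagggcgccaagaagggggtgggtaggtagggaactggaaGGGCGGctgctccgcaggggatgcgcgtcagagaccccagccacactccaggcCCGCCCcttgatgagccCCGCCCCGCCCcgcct
Cxcr4: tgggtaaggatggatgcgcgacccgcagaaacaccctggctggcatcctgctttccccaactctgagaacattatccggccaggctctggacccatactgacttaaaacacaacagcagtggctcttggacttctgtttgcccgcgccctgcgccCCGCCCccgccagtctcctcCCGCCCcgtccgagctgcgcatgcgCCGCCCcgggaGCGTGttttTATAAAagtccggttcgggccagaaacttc
Ackr3: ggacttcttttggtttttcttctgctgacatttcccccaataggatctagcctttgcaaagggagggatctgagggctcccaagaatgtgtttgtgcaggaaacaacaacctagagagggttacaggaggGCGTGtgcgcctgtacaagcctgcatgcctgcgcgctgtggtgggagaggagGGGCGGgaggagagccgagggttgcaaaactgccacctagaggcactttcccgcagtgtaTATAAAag
Cxcl1: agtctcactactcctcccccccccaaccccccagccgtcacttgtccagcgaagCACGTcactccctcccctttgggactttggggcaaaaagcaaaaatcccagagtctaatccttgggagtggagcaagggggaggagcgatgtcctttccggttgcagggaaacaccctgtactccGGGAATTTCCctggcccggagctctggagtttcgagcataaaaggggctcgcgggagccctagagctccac

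The 4 windows differed in these letters. Cxcl12 held 5 GC box matches, the nearest starting 11 bases before the start site, and none of the other motifs. Cxcr4 held 3 GC box matches, TATA box letters starting 30 bases before the start and 1 HIF core with G starting 39 bases before it. Ackr3 held 1 GC box match, TATA box letters starting 8 bases before the start and 1 HIF core with G starting 120 bases before it. Cxcl1 held neither TATA nor GC box letters, but had 1 HIF core with A starting 196 bases before the start and 1 NF-kB match starting 71 bases before it. Among all 32851 RefSeq windows of this length, 7.59% held the TATA box letters, 32.7% the GC box letters, 16.6% the HIF core with A, 28.2% that with G and 0.0852% the NF-kB consensus. The matches are a description of these windows, and binding at them was not measured.

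Of 7836 barcodes at P1 and 9077 at P7, 4991 and 8511 were kept, with a median of 10875 and 10104 UMIs per cell and 59026295 and 97432007 UMIs in all. The libraries shared 13 barcodes among the cells kept. Levels are in CPM, the UMIs of a gene scaled to all UMIs summed over a class in 1 library, with exact Poisson 95% intervals, and differences are log2 ratios of P7 over P1 with exact binomial 95% intervals. All intervals cover counting error only. A gene was counted as past 2-fold in a class when the log2 ratio was at least 1 in either direction and its UMIs over both libraries summed to at least 20. A difference past 2-fold is a size and not a test.

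Cells with Cdh5 formed the endothelium, divided by Gja5 into arterial endothelium (42 cells at P1, 89 at P7) and other endothelium (1315 and 2450 cells). Cells with Pi16 (279 and 1637) or with Pdgfra alone (890 and 684) were taken as fibroblasts, cells in which Myh11 exceeded Kcnj8 as smooth muscle (156 and 361) and the reverse as pericytes (216 and 324), and cells with Ptprc as leukocytes (218 and 378). Cells with markers of more than 1 lineage, 21.7% at P1 and 22.8% at P7, were left out of the classes, as were the 15.9% and 7.58% without a marker. Independent markers fitted most labels. The arterial list (Gja4, Hey1, Sox17, Dll4, Efnb2, Bmx) summed to 2654 and 3346 CPM in arterial and to 444 and 439 CPM in other endothelium, and the smooth muscle list to 25875 and 32566 CPM in smooth muscle. The pericyte class reached 5488 and 10657 CPM of its own list but also 5959 and 6611 CPM of fibroblast markers. The Pi16 class was the least alike between libraries, with 813 CPM of its own list (Clec3b, Cd248, Sema3c, Pcolce2, Cd55, Anxa3) at P1 against 2347 at P7, 164 against 15.6 CPM of leukocyte markers and 232 against 2.68 CPM of epicardial markers. A stricter Pi16 class with at least 3 Pi16 UMIs and a Pdgfra UMI, defined after the data were seen, held 68 and 980 cells, in which leukocyte markers summed to 12.2 and 7.88 CPM. This class was still unlike between libraries, with its own list at 1239 and 2832 CPM and fibroblast markers at 24360 and 36499 CPM. Of the chemokines grouped as stromal beside Cxcl12, Cxcl1 had its highest CPM in fibroblasts. Cxcl14 and Cxcl16 had theirs in leukocytes, which by this measure goes against that name. Other measures of both were less one-sided. Leukocytes held 35.7% of the Cxcl14 UMIs at P1 and 26.5% at P7, Pi16 fibroblasts 25.7% and 20.6%, and Pdgfra fibroblasts 7.62% and 0%. Of the Cxcl16 UMIs leukocytes held 16.9% at P1 and 6.68% at P7, Pdgfra fibroblasts 15.0% and 12.8%, and Pi16 fibroblasts 4.17% and 25.1%. A Cxcl16 UMI was found in 23.9% and 15.1% of leukocytes and in 25.1% and 31.6% of Pdgfra fibroblasts, whose median depth was higher.

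Over all cells, Ackr3 was higher at P7 and Cxcl14 higher at P1 past 2-fold, against 12.9% of the 16552 genes measured at this depth. Ackr3 was at 48.7 CPM (46.9 to 50.5) at P1 and 133 CPM (130 to 135) at P7, giving a log2 ratio of 1.45. Cxcl14 was at 3.56 CPM at P1 and 0.349 CPM at P7, giving a log2 ratio of -3.33 (-3.92 to -2.82). Cxcl12 (183 and 208 CPM, 0.19) and Cxcr4 (9.17 and 12.6 CPM, 0.46) were slightly higher at P7, and Cxcl1 (92.1 and 53.0 CPM, -0.80) and Cxcl16 (39.8 and 28.0 CPM, -0.51) were lower. These sums mix levels per cell with the make-up of the sorted cells, and fewer cells of a type and less RNA per cell cannot be told apart in them. The Pi16 class alone grew from 5.59% to 19.2% of cells kept.

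**Figure D1:**
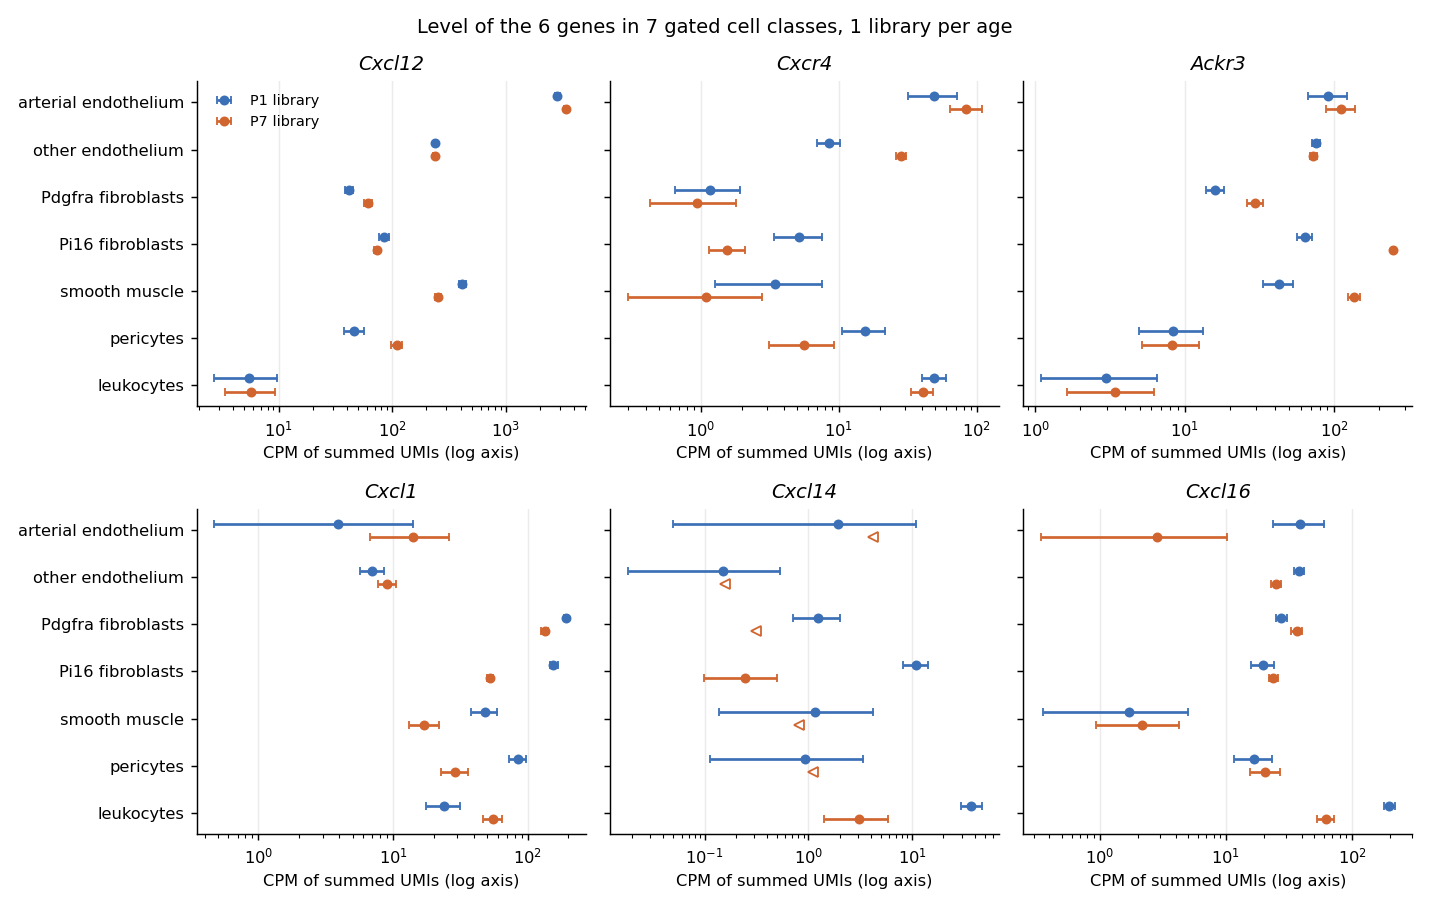
Level of each gene in the 7 gated classes, as CPM of summed UMIs on a log axis that differs between panels; points are the P1 (blue) and P7 (orange) library, bars are exact Poisson 95% intervals, and open triangles mark the level of 3 counts where a class held no UMI. Cxcl12 sat highest in arterial endothelium at 2823 and 3409 CPM, Ackr3 reached 249 CPM in the P7 Pi16 fibroblasts, and Cxcl16 reached 198 CPM in the P1 leukocytes.

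Cxcl12 had its highest CPM in arterial endothelium, a small class that held 13.4% of its UMIs at P1 and 11.9% at P7. The other endothelium held 29.8% and 22.1% of the Cxcl12 UMIs, and cells with markers of more than 1 lineage 35.9% and 45.1%. Some of these mixed cells carried Cdh5 and Gja5. When mixed cells with Cdh5 were kept as endothelium, the arterial class held 1932 Cxcl12 UMIs in 67 cells at P1 and 5838 in 192 cells at P7. Without them it held 1448 and 2413, so its share of the UMIs depended on the gate. In arterial endothelium Cxcl12 reached 2823 CPM (2680 to 2973) at P1 and 3409 CPM (3275 to 3548) at P7, which was 11.8-fold (11.1 to 12.6) and 14.4-fold (13.7 to 15.2) its level in the other endothelium. It was detected in 76.2% and 85.4% of arterial cells. Smooth muscle came next at P1 with 415 CPM, then the other endothelium with 239, Pi16 fibroblasts with 84.9, and pericytes and Pdgfra fibroblasts with 46.1 and 41.5, which did not differ beyond counting error. At P7 smooth muscle and other endothelium, at 253 and 236 CPM, did not differ beyond counting error, and pericytes (110), Pi16 fibroblasts (72.9) and Pdgfra fibroblasts (61.8) followed. Leukocytes were last in both libraries at 5.47 and 5.78 CPM, and their 2.75% and 3.70% of cells with a Cxcl12 UMI, at a median depth of 7510 and 5953 UMIs, serve as the level of background detection.

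The Cxcl12 of the other endothelium also came from few cells, and several arterial genes were high in them. The cells with at least 10 Cxcl12 UMIs were 69 at P1 (5.25% of the class) and 122 at P7 (4.98%), and they held 84.2% and 74.7% of its Cxcl12 UMIs. Gja4, an arterial connexin, stood at 680 CPM in these cells against 66.8 in those without Cxcl12 at P1, and at 757 against 21.3 CPM at P7. Hey1, a Notch target, and Sox17, an arterial transcription factor, showed the same pattern, with 232 against 14.7 and 654 against 92.8 CPM at P1. Others of the 6 arterial markers differed less at P1, where the Notch ligand Dll4 was at 73.1 against 39.5 CPM and Bmx at 19.3 against 19.1 CPM. Venous Nr2f2 ran the other way, at 24.8 against 106 CPM at P1 and 4.64 against 48.0 CPM at P7, as did capillary Aplnr, at 33.1 against 241 CPM at P1 and 105 against 476 CPM at P7. Capillary Car4 was at 182 against 398 CPM at P1 but level at P7, at 206 against 216 CPM. When cells with at least 3 of the 6 arterial markers were left out, an alternative added after the data were seen that kept 974 and 1889 cells, Cxcl12 in the other endothelium was 51.9 CPM at P1 and 55.9 CPM at P7. Within the arterial class the same requirement kept 34 of 42 and 76 of 89 cells, and with them 1447 of 1448 and 2407 of 2413 Cxcl12 UMIs.

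**Figure D2:**
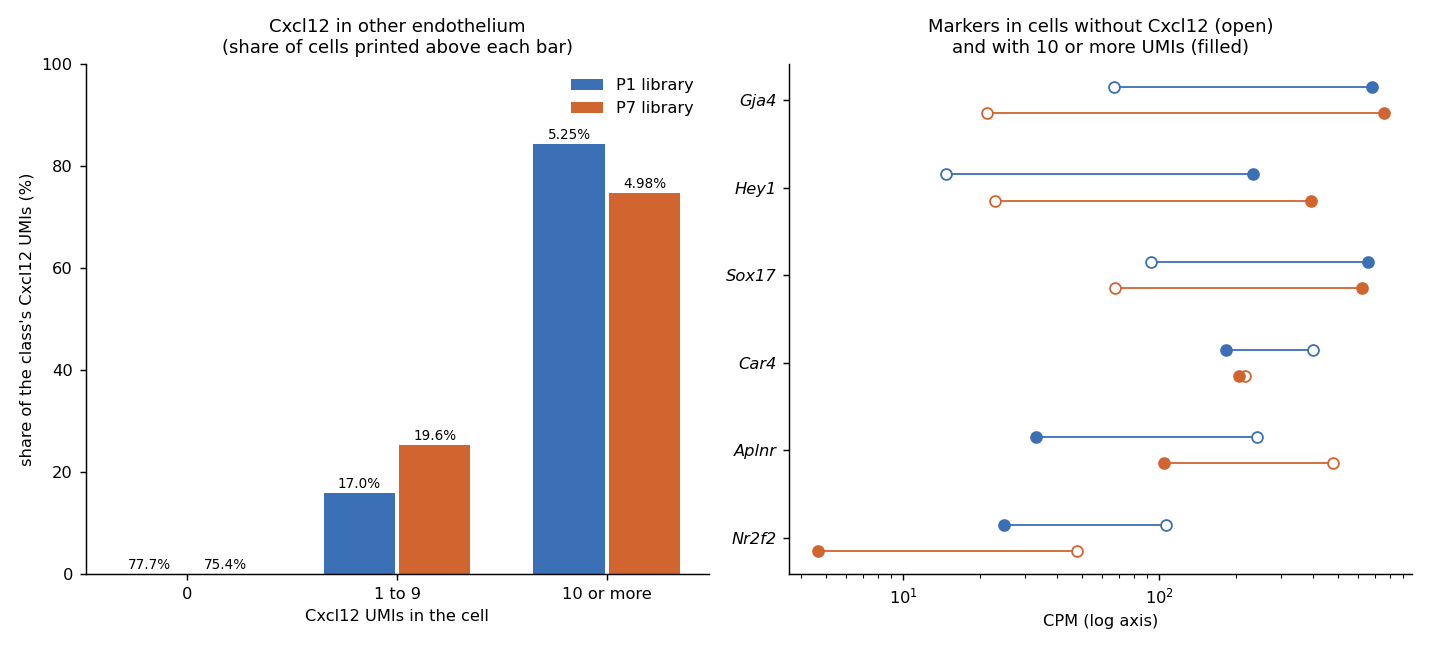
Left, share of the Cxcl12 UMIs of the other endothelium (%) by the number of Cxcl12 UMIs in a cell, with the share of cells printed above each bar; right, CPM of 3 arterial genes (Gja4, Hey1, Sox17), 2 capillary genes (Car4, Aplnr) and venous Nr2f2 on a log axis, in cells without Cxcl12 (open) and with 10 or more of its UMIs (filled). The cells with 10 or more UMIs held 84.2% and 74.7% of the UMIs and were higher in the 3 arterial genes drawn and lower in Nr2f2, and Car4 at P7 was level at 206 and 216 CPM.

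Among subsets of the other endothelium, Cxcl12 was highest in cells with none of 5 subset genes (Prox1, Npr3, Aplnr, Car4, Nr2f2), at 1181 and 1560 CPM, and stood at 462 and 675 CPM in Car4 cells. In the few cells assigned by Nr2f2 it was at 534 CPM (476 to 598) in 49 cells at P1 and 672 CPM (557 to 804) in 25 cells at P7, with a Cxcl12 UMI in 14 and 7 of them. Aplnr cells, the largest subset, were low at 74.5 and 92.3 CPM. Cxcl12 was at 90.1 CPM in 203 Npr3 cells at P1 and at 21.5 CPM, on 8 UMIs, in 33 such cells at P7.

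Between libraries Cxcl12 differed little in endothelium as a whole. Its log2 ratio was 0.27 (0.18 to 0.37) in arterial and -0.02 (-0.08 to 0.05) in other endothelium, and the arterial value was 0.04 when each cell had equal weight. Subsets of the other endothelium were less level, at 0.31 (0.17 to 0.46) in Aplnr cells, 0.55 (0.39 to 0.70) in Car4 cells and 0.40 (0.31 to 0.50) in cells without the 5 genes. It was 0.33 in Nr2f2, 1.83 in Prox1 and -1.98 in Npr3 cells. Aplnr cells, low in Cxcl12, were 658 of 1315 cells at P1 and 1853 of 2450 at P7. The mural classes differed in opposite directions. Smooth muscle went from 415 CPM (385 to 446) to 253 CPM (237 to 270), giving a log2 ratio of -0.71, although the share of cells with a UMI was 61.5% at P1 and 77.6% at P7 and 34.0% and 38.6% after thinning to 2000 UMIs per cell. A single P1 smooth muscle cell held 64 Cxcl12 UMIs, against a maximum of 15 at P7. Pericytes went from 46.1 CPM (37.5 to 56.1) to 110 CPM (97.7 to 123), giving a log2 ratio of 1.25 (0.92 to 1.60), and from 16.7% to 37.0% of cells. Requiring 2 UMIs of the gate marker gave 0.77 in pericytes, and taking the lineage from the marker lists gave 22.6 and 116 CPM, giving a log2 ratio of 2.34. Pdgfra fibroblasts were at 41.5 and 61.8 CPM (0.57) and Pi16 fibroblasts at 84.9 and 72.9 CPM (-0.22).

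Cxcr4, the signalling receptor, was highest in leukocytes and arterial endothelium in both libraries. At P1 leukocytes (49.2 CPM, 40.0 to 59.9) and arterial endothelium (48.7 CPM, 31.5 to 72.0) did not differ beyond counting error, pericytes followed at 15.4 and other endothelium at 8.50 CPM. At P7 arterial endothelium led at 83.4 CPM (63.5 to 108), ahead of leukocytes at 40.5 and other endothelium at 28.3. Pi16 fibroblasts, smooth muscle and Pdgfra fibroblasts were lowest, at 5.19, 3.45 and 1.17 CPM at P1 and 1.56, 1.09 and 0.940 at P7, and their neighbouring values did not differ beyond counting error in either library. Pdgfra fibroblasts, with a UMI in 1.69% and 1.17% of cells at a median of 13649 and 14182 UMIs, give the background of detection, and smooth muscle with 1.28% and 0.831% was at or below it.

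Cxcr4 was past 2-fold in 3 classes, higher at P7 in the other endothelium and higher at P1 in Pi16 fibroblasts and pericytes. In the other endothelium it was the only member of 5 measured past 2-fold, where 10.1% of genes were. It went from 114 UMIs and 8.50 CPM (7.01 to 10.2) at P1 to 537 UMIs and 28.3 CPM (25.9 to 30.8) at P7, giving a log2 ratio of 1.73 (1.44 to 2.04), and from 6.31% to 15.1% of cells. In cells thinned to 2000 UMIs the shares were 1.66% and 5.90%. Of the genes measured in this class, 98.9% had a lower ratio. Without the cells that carried 3 or more arterial markers the levels were 4.20 and 20.8 CPM, giving a log2 ratio of 2.30, and over the other 11 alternatives the ratio ran from 1.52 to 2.00. The 6 leukocyte markers summed to 39.4 and 37.9 CPM in the class, but other genes of leukocytes were higher at P7 there. Cx3cr1, a macrophage receptor, had 3 and 54 UMIs (3.46), the antigen presentation gene Cd74 had 11 and 106 UMIs (2.71), Rgs1 had 5 and 49 UMIs (2.67) and platelet factor Pf4 had 118 and 523 UMIs (1.64). Their part in the Cxcr4 difference was not tested.

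Cxcr4 was higher at P7 in each of the larger endothelial subsets. In cells with Aplnr, a gene of capillary and sprouting endothelium, it went from 5.75 to 23.2 CPM (2.00, 1.55 to 2.52). In cells with Car4, a capillary gene, it went from 18.8 to 52.0 CPM (1.45, 0.76 to 2.21), and in cells with none of the 5 subset genes from 29.7 to 77.8 CPM (1.38, 0.85 to 1.97). Arterial endothelium was at 48.7 and 83.4 CPM on 25 and 59 UMIs (0.76, 0.08 to 1.51), which is under 2-fold. Cells with Prox1, a lymphatic gene, held 0 Cxcr4 UMIs in 54 cells at P1, which allows up to 5.50 CPM, and 4 UMIs in 38 cells at P7.

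**Figure D3:**
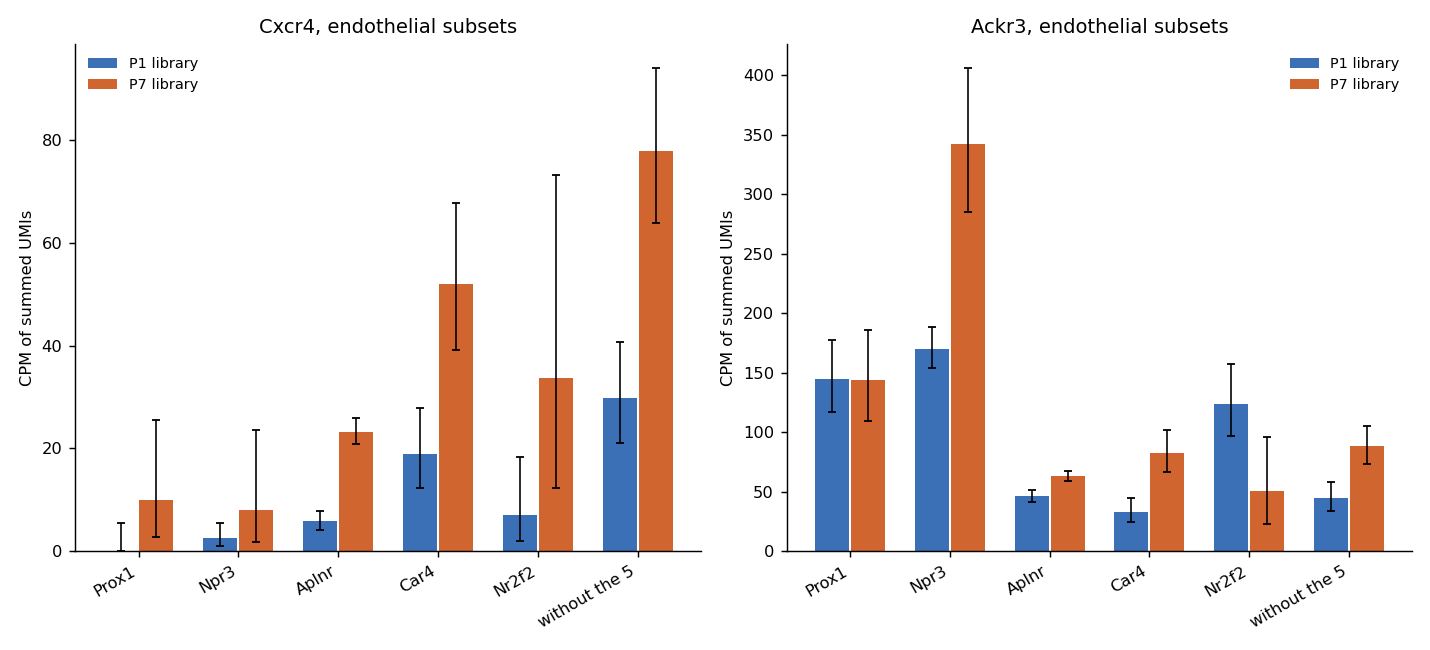
CPM of Cxcr4 (left) and Ackr3 (right) in subsets of the other endothelium, assigned in the order Prox1, Npr3, Aplnr, Car4, Nr2f2 and cells without the 5 genes; bars are the P1 (blue) and P7 (orange) library with exact Poisson 95% intervals. Cxcr4 went from 5.75 to 23.2 CPM in Aplnr cells and from 18.8 to 52.0 in Car4 cells, while Ackr3 was highest in Npr3 cells at 170 and 342 CPM.

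Among leukocytes the cells with Cd79a, a B cell gene, had the most Cxcr4, 208 CPM (127 to 321) in 18 cells at P1 and 137 CPM (100 to 183) in 59 cells at P7, and 66.7% and 54.2% of them had a UMI. Cells with at least 3 UMIs of S100a8, a neutrophil gene, were at 66.9 and 82.7 CPM. Cells with at least 3 UMIs of C1qa, a macrophage gene, were at 24.5 CPM (20 UMIs) and 4.21 CPM (4 UMIs). The class as a whole was at 49.2 and 40.5 CPM, giving a log2 ratio of -0.28 (-0.68 to 0.12), and thinning to 2000 UMIs gave -1.15, from 41 and 31 UMIs. Cells with Cd3e, a T cell gene, numbered 2 at P1 and 157 at P7, so the make-up of the class differed between libraries. In pericytes Cxcr4 was lower at P7, 33 UMIs (15.4 CPM) against 15 (5.61 CPM), giving a log2 ratio of -1.43 (-2.44 to -0.53), and in Pi16 fibroblasts 26 UMIs (5.19 CPM) against 45 (1.56 CPM), -1.74 (-2.46 to -0.98). In the stricter Pi16 class, where leukocyte markers were at 12.2 and 7.88 CPM, Cxcr4 was at 10.7 and 1.30 CPM on 15 and 24 UMIs. Leukocyte markers summed to 16.8 and 42.6 CPM in pericytes and to 164 and 15.6 CPM in the Pi16 class. The part of leukocyte transcripts in these Cxcr4 differences was not tested.

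Ackr3, the scavenging receptor, showed a different map. At P1 arterial and other endothelium shared the first rank at 91.6 CPM (67.3 to 122) and 75.4 CPM (70.8 to 80.1). Pi16 fibroblasts followed at 63.5, smooth muscle at 42.5, Pdgfra fibroblasts at 16.0, pericytes at 8.38 and leukocytes at 2.98. The arterial value rested on 47 UMIs in 13 cells, with 20 UMIs in 1 cell. This order depended on the gate. Requiring 2 UMIs of the gate marker gave 79.4 CPM in arterial endothelium, 76.6 in other endothelium and 77.3 in Pi16 fibroblasts at P1. The stricter Pi16 class was at 118 CPM, and arterial cells with at least 3 further arterial markers were at 44.5 CPM. At P7 Pi16 fibroblasts led at 249 CPM (244 to 255), ahead of smooth muscle at 136 and arterial endothelium at 112, which did not differ beyond counting error, then other endothelium at 72.8, Pdgfra fibroblasts at 29.7, pericytes at 8.22 and leukocytes at 3.40. Leukocytes, with a UMI in 2.29% and 2.65% of cells, give the background of detection, and pericytes with 2.78% and 4.94% were close to it. The Pi16 class held 11.1% of all Ackr3 UMIs at P1 and 55.5% at P7.

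In Pi16 fibroblasts Ackr3 went from 318 UMIs in 279 cells to 7175 UMIs in 1637 cells, from 63.5 CPM (56.7 to 70.9) to 249 CPM, giving a log2 ratio of 1.97 (1.81 to 2.14). It was detected in 27.6% of the P1 and 64.8% of the P7 cells, or 6.55% and 29.8% after thinning. Of the 6 members measured in this class 4 were past 2-fold, 1 of them higher at P7, where 11.8% of genes were. In the stricter Pi16 class Ackr3 was at 118 and 318 CPM, giving a log2 ratio of 1.43, while the Pi16 list there was at 1239 and 2832 CPM. In the main Pi16 class, without cells that carried a UMI of posterior body or lung genes (Hoxa4, Hoxa5, Hoxb5, Foxf1, Tbx4, Sftpc), the ratio was 2.37. Such cells were 20.1% of the P1 and 5.03% of the P7 library. Pdgfra fibroblasts differed less, 16.0 and 29.7 CPM (0.89, 0.62 to 1.15), so that the level in Pi16 over Pdgfra fibroblasts was 3.96-fold (3.31 to 4.75) at P1 and 8.40-fold (7.46 to 9.49) at P7.

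Smooth muscle had the same direction. Ackr3 was at 42.5 CPM (33.4 to 53.4) at P1 and 136 CPM (125 to 149) at P7, giving a log2 ratio of 1.67 (1.33 to 2.05), and the share of cells with a UMI was 21.8% and 43.8%, or 5.56% and 20.6% after thinning. It was 1 of 2 members past 2-fold among 3 measured in smooth muscle, where 8.01% of genes were. Pericytes, the neighbouring mural class, held 18 and 22 UMIs, close to background, with a log2 ratio of -0.04 (-0.99 to 0.96). This ratio ran from -0.81 to 0.96 over 11 alternatives. At so low a level it does not settle whether pericytes shared the direction. The level in smooth muscle over pericytes was 5.07-fold (3.00 to 9.03) at P1 and 16.6-fold (10.8 to 26.7) at P7.

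The other endothelium as a whole was level, at 75.4 and 72.8 CPM (-0.05, -0.17 to 0.07), but its subsets were not. Cells with Npr3, an endocardial gene, were at 170 CPM (154 to 188) in 203 cells at P1 and 342 CPM (285 to 406) in 33 cells at P7, giving a log2 ratio of 1.01 (0.70 to 1.29). Car4 cells were at 33.1 and 82.8 CPM (1.31, 0.78 to 1.88) and Aplnr cells at 45.9 and 62.8 CPM (0.45, 0.27 to 0.64). Prox1 cells were at 145 and 144 CPM. Cells with Nr2f2, a venous gene, were at 124 and 50.4 CPM on 70 and 9 UMIs. The Npr3 cells, high in Ackr3, were 203 of 1315 cells at P1 and 33 of 2450 at P7, so the total of the class mixed these subsets in other proportions. In arterial endothelium Ackr3 was at 91.6 and 112 CPM (0.28), but at 44.5 and 103 CPM (1.19) in the cells with at least 3 further arterial markers. Outside the gated classes, cells with at least 2 UMIs of Upk3b, an epicardial marker, had 139 CPM (106 to 179) in 30 cells at P1 and 111 CPM (62.0 to 183) in 11 cells at P7.

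Ligand and receptors were also compared within cells, after thinning each to 2000 UMIs. In the other endothelium, Cxcr4 was found in 6.80% (3.31 to 12.2) of 147 cells with Cxcl12 and in 0.948% (0.455 to 1.74) of 1055 cells without it at P1, and in 13.2% (9.77 to 17.3) of 333 and 4.62% (3.72 to 5.66) of 1904 cells at P7. In arterial endothelium Cxcr4 was found at P1 in 5 of 28 cells with Cxcl12 (6.06% to 36.9%) and 0 of 14 without (0% to 23.2%). At P7 it was found in 14 of 66 (12.1% to 33.0%) and 0 of 15 (0% to 21.8%), and the intervals overlapped in both libraries. Before thinning, arterial cells with at least 3 further arterial markers held 25 of 25 and 58 of 59 Cxcr4 UMIs of the class. The part of the remaining cells in this contrast was not tested. Ackr3 did not show the pattern of Cxcr4 in the other endothelium, with 6.80% and 10.5% at P1 and 11.1% and 12.2% at P7. In Pi16 fibroblasts at P1, Ackr3 was found in 26.7% (12.3 to 45.9) of 30 cells with Cxcl12 and in 4.08% (1.97 to 7.38) of 245 without. The order was reversed at P7, with 24.4% (18.5 to 31.0) of 193 cells and 30.5% (28.1 to 32.9) of 1427, and there the intervals overlapped. The P1 shares rested on 8 and 10 cells with Ackr3. Leukocyte markers in the Pi16 class summed to 164 CPM at P1 and 15.6 at P7, and epicardial markers to 232 and 2.68 CPM. The part of other cell types within this gate in the contrast was not tested. Smooth muscle with Cxcl12 had Ackr3 in 4.08% of 49 cells (2 cells) at P1 and in 24.4% (17.3 to 32.7) of 131 cells at P7. Smooth muscle without Cxcl12 had it in 6.32% of 95 cells (6 cells) at P1 and 18.3% (13.3 to 24.2) of 208 cells at P7, so the share was higher at P7 with and without the ligand. These shares count cells of 1 library per age, and ranges in parentheses are exact binomial 95% intervals.

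Cxcl1, the neutrophil-recruiting chemokine, was highest in Pdgfra fibroblasts in both libraries. At P1 it was ordered Pdgfra fibroblasts (193 CPM, 185 to 200), Pi16 fibroblasts (155, 145 to 167), pericytes (84.3), smooth muscle (47.7), leukocytes (23.9), other endothelium (7.01) and arterial endothelium (3.90), where the last pair did not differ beyond counting error. At P7 Pdgfra fibroblasts led at 133 CPM (126 to 141), leukocytes at 54.8 and Pi16 fibroblasts at 52.7 did not differ beyond counting error, and pericytes (28.8) followed. Then came smooth muscle (17.1), arterial (14.1) and other endothelium (9.01), of which no neighbours differed beyond counting error. The pericyte class also carried 5959 and 6611 CPM of fibroblast markers, and their part in its Cxcl1 level was not tested. Other endothelium, with a UMI in 4.56% and 3.76% of cells at a median of 9302 and 7012 UMIs, gives the background of detection. It is a rough guide, since a P7 cell of that class held 28 Cxcl1 UMIs. Leukocytes, with a UMI in 4.13% and 5.29% of cells, were close to this background by share of cells.

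In the leading class, Pdgfra fibroblasts, Cxcl1 was under 2-fold, with a log2 ratio of -0.53 (-0.63 to -0.43), 37.9% of cells at P1 and 30.3% at P7, and 0 of 5 members measured there were past 2-fold, where 7.19% of genes were. It was lower at P7 past 2-fold in Pi16 fibroblasts (-1.56, -1.69 to -1.43), smooth muscle (-1.48, -1.97 to -0.99) and pericytes (-1.55, -1.95 to -1.16), the last being 1 of 3 members past 2-fold among 5 measured in pericytes, where 6.60% of genes were. In the stricter Pi16 class it was at 201 and 40.7 CPM, giving a log2 ratio of -2.30. In smooth muscle the ratio was -0.84 at 2 UMIs of the gate marker.

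Cxcl1 stood high in cells that also carried transcripts known to be induced by tissue digestion. Pdgfra fibroblasts of both libraries were divided into tertiles by the summed level of 15 such genes (among them Fos, Jun, Egr1, Atf3 and Nfkbia), a division added after the data were seen. Cxcl1 was at 25.4 and 15.6 CPM in the lowest tertile, at 184 and 102 in the middle and at 334 and 289 in the highest, for P1 and P7. The log2 ratio was -0.69 (-1.25 to -0.17), -0.86 (-1.04 to -0.68) and -0.21 (-0.33 to -0.09) in that order. The list itself summed to 6183 CPM at P1 and 5798 at P7 in Pdgfra fibroblasts and to 6686 and 5487 in Pi16 fibroblasts. It summed to 10185 and 8329 CPM in smooth muscle and 4852 and 3616 in pericytes, so the sum was lower at P7 in each of these classes. Single genes of the list differed in direction. In Pdgfra fibroblasts Jun was at 881 and 1198 CPM, whereas Nfkbia was at 171 and 75.3 CPM. In leukocytes, where Cxcl1 was higher at P7, the list was at 13070 and 9110 CPM. Pi16 fibroblasts, divided in the same way, had Cxcl1 at 116 and 35.2 CPM in the middle and 271 and 115 in the highest tertile, but at 5.29 CPM (6 UMIs) and 10.1 CPM in the lowest. The part of digestion in the levels of Cxcl1 was not tested.

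Leukocytes ran the other way. Cxcl1 went from 48 UMIs (23.9 CPM, 17.6 to 31.6) to 161 UMIs (54.8 CPM, 46.6 to 63.9), giving a log2 ratio of 1.19 (0.73 to 1.69), and it was 1 of 3 members past 2-fold among 5 measured in leukocytes, where 14.2% of genes were. The C1qa cells carried most of it at P7, 149 UMIs in 16 of 68 cells (157 CPM, 133 to 184), against 19 UMIs in 6 of 50 cells at P1 (23.3 CPM). At P1 28 of the 48 UMIs lay in 2 cells with S100a8. Few cells thus set these values, and with the gate at 2 Ptprc UMIs the ratio was 0.68.

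**Figure D4:**
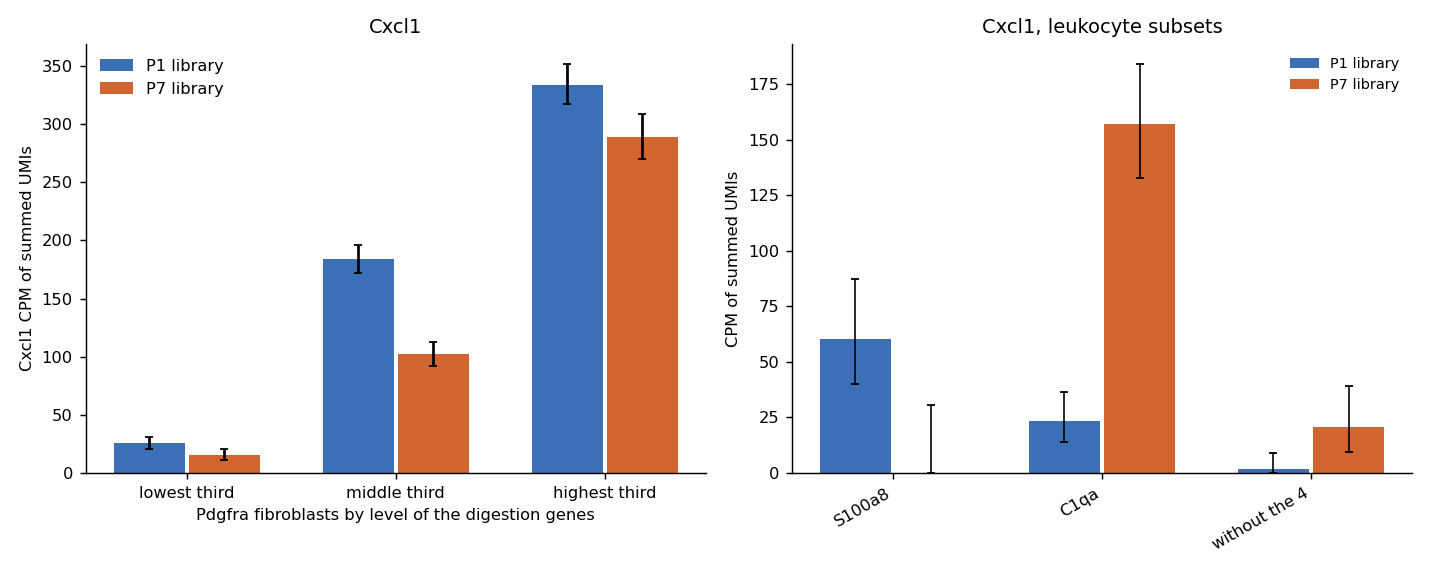
CPM of Cxcl1 with exact Poisson 95% intervals in the P1 (blue) and P7 (orange) library: left, Pdgfra fibroblasts by tertile of the digestion genes; right, leukocyte subsets, leaving out the Cd79a and Cd3e cells, which held at most 3 Cxcl1 UMIs per library. Cxcl1 went with the digestion genes in both libraries, from 25.4 to 334 CPM at P1 and from 15.6 to 289 CPM at P7, and C1qa cells were at 23.3 CPM at P1 and 157 CPM at P7.

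Cxcl14 was rare, with 210 UMIs in 69 cells at P1 and 34 UMIs in 21 cells at P7. Leukocytes led in both libraries, at 37.3 CPM (29.3 to 46.7) and 3.06 CPM (1.40 to 5.81), giving a log2 ratio of -3.54 (-4.79 to -2.61). In C1qa cells it was found in 38.0% of 50 cells at P1 (55.1 CPM, 40.2 to 73.7) and in 7.35% of 68 cells at P7 (6.32 CPM, 2.32 to 13.8). The S100a8 cells of P1 held 24 UMIs, but in 4 of 76 cells. Pi16 fibroblasts were next at 10.8 and 0.243 CPM, with 38 of the 54 UMIs at P1 in 1 cell. Their log2 ratio was -5.38 (-6.85 to -4.33) and ran from -6.22 to -2.03 over 12 alternatives. Pdgfra fibroblasts held 16 UMIs at P1 and 0 in 684 cells at P7, at least 3.99-fold lower against a floor of 3 counts in the P7 library. The remaining 4 classes held at most 2 UMIs each, in either library. Cells with a posterior body or lung transcript held 53.8% of the P1 Cxcl14 UMIs, and without them the log2 ratio over all cells was -2.55. The 10 cells with most Cxcl14 held 51.9% of its UMIs at P1.

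Cxcl16 was highest in leukocytes too, at 198 CPM (179 to 218) at P1 and 61.9 CPM (53.2 to 71.6) at P7, giving a log2 ratio of -1.67 (-1.94 to -1.42). Nearly all of it lay in cells with the macrophage gene C1qa, which held 383 of the 398 leukocyte UMIs at P1 and 172 of 182 at P7, at 469 CPM (423 to 518) and 181 CPM (155 to 210), in 92.0% and 73.5% of cells, so that the ratio within them was -1.37 (-1.64 to -1.11). With the lineage taken from the marker lists the leukocyte ratio was -0.99. After leukocytes the order at P1 was arterial endothelium (39.0 CPM) and other endothelium (38.2), not apart by counting, Pdgfra fibroblasts (27.6), Pi16 fibroblasts (19.6) and pericytes (16.8), not apart, and smooth muscle (1.72). At P7 it was Pdgfra fibroblasts (36.5), other endothelium (25.0), Pi16 fibroblasts (23.8) and pericytes (20.6), among which only Pdgfra fibroblasts stood apart by counting, then arterial endothelium (2.83) and smooth muscle (2.17), not apart. Smooth muscle, with a UMI in 1.92% and 2.22% of cells, gives the background of detection.

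In endothelium Cxcl16 was highest in the Npr3 subset in both libraries. Npr3 cells were at 105 CPM (92.8 to 119) at P1 and 59.2 CPM (37.1 to 89.6) at P7, and Car4 cells at 11.3 and 16.4 CPM. Prox1 cells were at 70.1 CPM (51.5 to 93.2) at P1 and at 19.9 CPM (8.59 to 39.2), on 8 UMIs, at P7, and Nr2f2 cells at 55.0 CPM on 31 UMIs and 11.2 CPM on 2 UMIs. The other endothelium as a whole was at 38.2 and 25.0 CPM (-0.61, -0.80 to -0.43), whereas Aplnr cells were at 19.5 and 25.5 CPM (0.38, 0.10 to 0.68). The Npr3 cells held 257 of the 512 Cxcl16 UMIs of this class at P1, in a subset of 203 cells. At P7 they held 22 of 474, in a subset of 33 cells, so the total of the class mixed its subsets in other proportions. Arterial endothelium held 20 UMIs in 8 cells at P1 and 2 UMIs in 2 cells at P7, giving a log2 ratio of -3.50 (-6.93 to -1.75), the 1 member past 2-fold of 4 measured in arterial endothelium, where 9.03% of genes were. Requiring 3 further arterial markers left 6 and 2 UMIs. Upk3b cells were at 67.2 CPM (29 UMIs) and 22.1 CPM (3 UMIs). In fibroblasts the direction was opposite but under 2-fold, 27.6 and 36.5 CPM (0.40, 0.18 to 0.62) in the Pdgfra and 19.6 and 23.8 CPM (0.28, -0.03 to 0.60) in the Pi16 class.

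**Figure D5:**
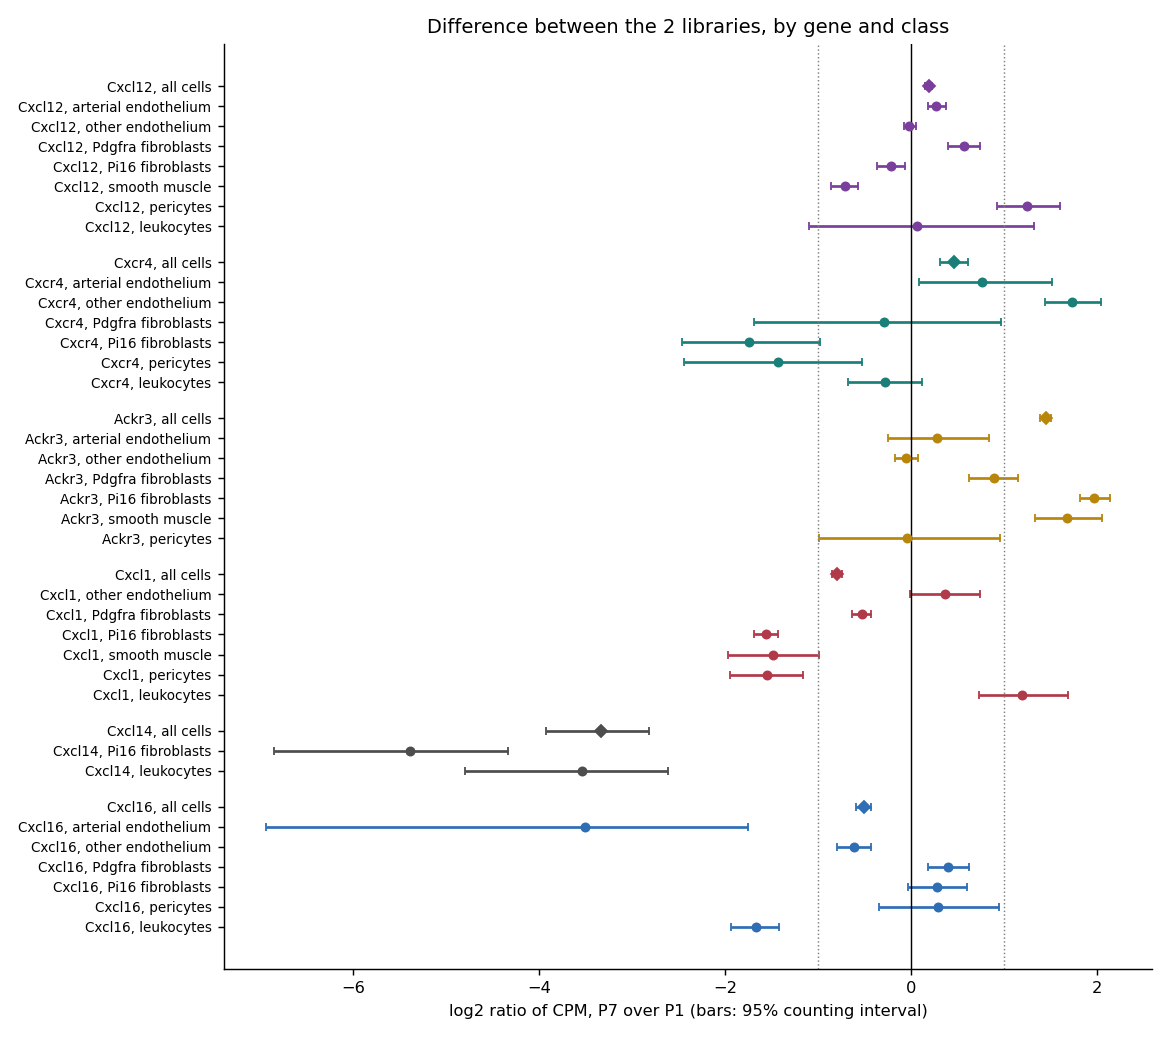
Log2 ratio of CPM, P7 over P1, for each gene over all cells (diamonds) and in each class with at least 20 UMIs over both libraries (circles), with exact binomial 95% counting intervals; dotted lines mark 2-fold. Ackr3 lay at 1.97 in Pi16 fibroblasts and 1.67 in smooth muscle, Cxcr4 at 1.73 in other endothelium but -1.43 in pericytes, and Cxcl1 at 1.19 in leukocytes but at -1.56 in Pi16 fibroblasts, -1.48 in smooth muscle and -1.55 in pericytes.

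Further genes of the system were read from lists. Of 12 other CXC and CX3C ligands, 11 were in the matrices and measured over all cells, 1 past 2-fold higher at P7 and 5 higher at P1, where 12.9% of genes were past 2-fold in either direction, with a median log2 ratio of -0.96 against -0.004 over all genes measured. In the other endothelium 4 of 7 measured were higher at P7 and 0 higher at P1 past 2-fold, where 10.1% of genes were. Cxcl9, an interferon-induced ligand of Cxcr3, went from 1.000 to 4.69 CPM over all cells and from 2.98 to 16.7 CPM in the other endothelium. Cxcl2, like Cxcl1 a neutrophil attractant, went from 78.6 to 38.4 CPM over all cells and from 49.9 to 4.03 CPM in Pi16 fibroblasts, but from 1.41 to 11.2 CPM in Pdgfra fibroblasts. Leukocytes had Cxcl2 at 1097 and 714 CPM, and leukocyte markers in the Pi16 class summed to 164 and 15.6 CPM. Their part in the Cxcl2 level of that class was not tested. Cxcl15, a lung chemokine, had 350 UMIs at P1 and 0 at P7, at least 193-fold lower against a floor of 3 counts, in the library where posterior and lung genes were also higher. Pf4 and Cxcl2, both among the 4 ligands past 2-fold in the other endothelium, went there from 8.80 to 27.5 and from 0.969 to 5.11 CPM. Pf4 was at 1386 and 1436 CPM in leukocytes. The part of leukocyte transcripts in these endothelial levels and in the count of 4 was not tested.

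Of 10 other chemokine receptors, 9 were measured over all cells, 1 past 2-fold higher at P7 and 3 higher at P1, beside the same 12.9% of all genes, with a median of -0.16. Cxcr2, the neutrophil receptor of Cxcl1, went from 68.1 to 14.6 CPM in leukocytes (-2.21, -2.75 to -1.72), with 76 cells carrying S100a8 at P1 and 27 at P7. Ackr2, a scavenger of CC chemokines, was higher at P7 in Pi16 fibroblasts as Ackr3 was, at 4.80 and 20.1 CPM (2.04, 1.48 to 2.72). Ackr4, a further scavenger, was at 17.2 and 32.0 CPM over all cells (0.89, 0.79 to 1.00) and at 35.8 and 65.0 CPM in Pi16 fibroblasts (0.86, 0.64 to 1.09). In the other endothelium it was at 6.04 and 2.48 CPM (-1.28, -1.84 to -0.75). Cxcr6, the receptor of Cxcl16, had 16 and 6 UMIs over all cells. Cxcr5, a B cell receptor, had 2 and 26 UMIs in leukocytes.

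Of 26 partners of the CXCL12 axis, 24 were in the matrices, and 0 of the 24 measured over all cells were past 2-fold, against 12.9% of all genes, with a median of -0.21. In the other endothelium 3 were higher and 4 lower at P7 past 2-fold, where 10.1% of all genes were past it in either direction, with a median of -0.00 against 0.027 over all genes measured. Adm, which encodes adrenomedullin, a further peptide that ACKR3 binds, went from 17.0 to 63.5 CPM there (1.90, 1.70 to 2.11), while its receptor gene Calcrl was at 134 and 73.4 CPM (-0.87). Dpp4, the protease that trims and inactivates CXCL12, differed in opposite directions between classes, from 25.1 to 3.63 CPM (-2.78, -3.18 to -2.41) in the other endothelium and from 8.19 to 42.5 CPM (2.36, 1.93 to 2.86) in Pi16 fibroblasts. The inhibitory G protein gene Gnai1 was lower at P7 in both, at 55.3 and 27.0 CPM and at 33.0 and 15.2 CPM, whereas Gnai2 was at 1680 and 2414 CPM (0.52) and at 638 and 627 CPM (-0.03). Sdc4, a heparan sulphate proteoglycan of the kind that holds CXCL12, was at 106 and 32.3 CPM in smooth muscle and at 18.9 and 6.37 CPM in the other endothelium. The sheddases that release CXCL16 from the membrane hardly differed in the other endothelium, where Adam10 was at 157 and 158 CPM and Adam17 at 39.4 and 40.9 CPM.

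The profile of each gene over the 7 classes in both libraries was compared with all other genes by Pearson's r of log2 CPM over 14 points, which share libraries and cells and are not independent. The closest to Cxcl12 were Mkl2 (0.97), Emc4 (0.96) and Cyb5r3 (0.95), to Cxcr4 Neu1 (0.96), Ube2q1 (0.93) and Rrp36 (0.93), and to Ackr3 Plpp3 (0.89), Kif5b (0.88) and Fam13c (0.86). For Cxcl1 they were Irs2 (0.94), Ubap2l (0.93) and Sulf2 (0.93), and for Cxcl16 Ubash3b (0.94), Mob3c (0.90) and Snx6 (0.90). For Cxcl14 they were Asprv1 (0.94), Gm5483 (0.92) and Stfa2l1 (0.92). Among the members themselves the highest r was 0.72, between Cxcl12 and Ackr3, and the lowest -0.62, between Cxcl12 and Cxcl16.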

How the data were processed

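Single cell 3′ RNA-seq libraries of sorted live heart cells, 1 at P1 and 1 at P7, were aligned to mm10 (GRCm38) with Cell Ranger 3.1.0, per the submitters' processing notes. The authors deposited unnormalised UMI counts per gene and barcode, and 0 columns of per-sample values were left unused. Barcodes with 200 to 8000 genes, the limits on genes that the study used, and at most 20% mitochondrial UMIs were kept. The study gives no number for its mitochondrial limit. No doublet caller was run, but cells with markers of more than 1 lineage were left out. UMIs were summed per class and library and scaled to CPM, and 0.5 counts were added for log2 ratios. The leading class of a gene was the one with the highest summed CPM among classes with at least 100 cells in each library.

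The members, gates and gene lists were chosen with earlier results of these data known. The text names the 6 members, marker genes, and the 3 genes closest to each member in profile, among genes with at least 200 UMIs. For the lists, the rule was to name up to 5 genes past 2-fold with the most UMIs, and it was not kept strictly. Calcrl, Gnai2, Adam10 and Adam17 were named outside this rule after their values were seen. Fos, Jun, Egr1 and Atf3 were named as digestion genes without being past 2-fold. Cxcr5, Cxcr6, Cd74 and Rgs1 were named as well. Ccrl2, past 2-fold in Pi16 fibroblasts, and Ramp2, past 2-fold in pericytes, were not discussed. With 1 library per age there was no test and no p-value. Intervals and floors of 3 counts cover counting error only. Cells were also thinned to 2000 UMIs each, and 574 shallower P1 cells and 727 P7 cells then dropped out. Scripts were tested on simulated counts. Python 3.11.15, numpy 2.4.6, scipy 1.17.1, pandas 2.3.3 and matplotlib 3.10.9 were used.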

Additional observations from a re-analysis of the deposited data

Results flagged for a closer look

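Cxcr4 and Cxcl1 each differed past 2-fold in opposite directions in different classes of the same pair of libraries. The log2 ratio of P7 over P1 for Cxcr4 was 1.73 in other endothelium, -1.43 in pericytes and -1.74 in Pi16 fibroblasts. For Cxcl1 it was 1.19 in leukocytes, and -1.56 in Pi16 fibroblasts, -1.48 in smooth muscle and -1.55 in pericytes. The difference between classes was not tested, since each class was measured in 1 library per age. The opposite values of Cxcr4 rested on 33 and 15 UMIs in pericytes and on 26 and 45 UMIs in Pi16 fibroblasts, against 114 and 537 in other endothelium.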

How the results depend on the processing

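Values here are log2 ratios of P7 over P1, and the causes of their shifts were not tested. Of 39 ratios measured, 16 were past 2-fold, and between 6.60% (pericytes) and 14.2% (leukocytes) of all genes were in a class. The alternatives reuse the UMIs of the same 2 libraries, and the 16 were picked for their size. A kept sign was thus likely beforehand and says nothing about age. Each of the 16 kept its sign in all 176 alternative values, and 171 of these stayed past 2-fold. The other 5 were 0.77 for Cxcl12 in pericytes, 0.68 for Cxcl1 in leukocytes and -0.84 for Cxcl1 in smooth muscle with gates at 2 UMIs, -0.96 for Cxcr4 in pericytes as a per-cell mean, and -0.99 for Cxcl16 in leukocytes by marker lists. The tertiles of Pi16 fibroblasts by digestion genes were not counted among the 176. In the lowest of them Cxcl1 had the opposite sign, 0.82 (-0.25 to 2.41) on 6 and 93 UMIs, against -1.72 in the middle and -1.24 in the highest. Small ratios could change sign: Ackr3 in arterial endothelium ran from -0.31 to 1.29, Cxcl1 in other endothelium from -0.51 to 0.62 and Cxcl12 in Pi16 fibroblasts from -0.87 to 0.13. In pericytes Ackr3 ran from -0.81 to 0.96 and Cxcl16 from -0.68 to 0.40. Depth limits Cxcl14 most, with 34 UMIs at P7. No paired analysis was possible because each age is 1 library.

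Over all cells, thinning to 2000 UMIs gave 0.40 for Cxcl12 and 1.29 for Ackr3, and the mean of per-cell CPM gave 0.46 for Cxcl12, 1.21 for Ackr3 and -0.41 for Cxcl16. Leaving out cells with posterior or lung genes gave 0.26 for Cxcl12, 1.78 for Ackr3 and -2.55 for Cxcl14, and leaving out the 5% deepest cells gave 1.37 for Ackr3. For Cxcl1 in Pdgfra fibroblasts, thinning gave -0.34, the per-cell mean -0.38, and keeping mixed cells or using marker lists -0.32. For Ackr3 in Pi16 fibroblasts, thinning gave 2.31, leaving out posterior or lung cells 2.37, the gate at 2 UMIs 1.71 and marker lists 1.75. Cxcl12 in smooth muscle was -0.51 without posterior or lung cells. In leukocytes, thinning gave -1.15 for Cxcr4 and -1.98 for Cxcl16, the gate at 2 UMIs -1.24 for Cxcl16, and marker lists -2.32 for Cxcl14 and -0.99 for Cxcl16. Chosen after seeing the data, the stricter Pi16 class gave 1.43 for Ackr3, and the tertiles of Pdgfra fibroblasts by digestion genes -0.69, -0.86 and -0.21 for Cxcl1. With at least 50 summed UMIs, the share of genes past 2-fold was 5.49% in arterial endothelium, 4.80% in smooth muscle and 3.69% in pericytes.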

Other observations

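Cells with markers of more than 1 lineage, left out above, held 35.9% of the Cxcl12 UMIs at P1 and 45.1% at P7, 30.1% and 33.6% of the Cxcr4 UMIs and 37.0% and 26.2% of the Ackr3 UMIs. Endothelial cells with Prox1 had Cxcl12 at 47.7 CPM on 32 UMIs in 3 of 54 cells at P1 and at 172 CPM on 69 UMIs in 7 of 38 cells at P7, so few cells set both values.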
